A study of Homo sapiens with 7 samples.

Results

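The genes described here encode the enzymes of glycolysis and of the pentose phosphate pathway, the carriers that bring glucose in and lactate out, and the kinases that set the flow at phosphofructokinase and pyruvate dehydrogenase. They were taken from a list of 34 symbols, and 33 of these were found among the 10452 genes of the authors' tables, which were joined by gene ID to a table of raw read counts for 25702 genes. The remaining symbol, *SLC16A3*, a lactate exporter, was below 10 CPM (counts scaled to the size of each library) in all 7 libraries and is given as values only. K562 cells are a long-used line from chronic myeloid leukemia with the BCR::ABL1 fusion, and dasatinib is a tyrosine kinase inhibitor of that fusion. The dasatinib resistant (DasR) intermediates were K562 cells grown in steadily rising dasatinib, sampled at 10, 15 and 25 nM (early stage, n = 3), and at 50 and 200 nM (late stage, n = 2). The controls were the drug naive cells and a line kept in parallel in the vehicle DMSO (n = 2). Each line gave 1 RNA library, and each higher dose was reached from the lower ones, so the lines of a group are neither repeats of one culture nor independent of one another, and the p-values measure only the spread between these lines. The stages were set in the study from how these same libraries clustered.

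Glycolysis splits glucose into pyruvate with a small yield of ATP, and lactate dehydrogenase returns pyruvate to lactate so that the pathway can continue. The pentose phosphate pathway branches from the first glycolytic sugar phosphate and supplies NADPH and ribose for nucleotides. The hypoxia-inducible factor HIF-1 and MYC are known to raise many of these genes, and maturing red cells, which lose their mitochondria, depend on glycolysis and use its bisphosphoglycerate branch to tune the oxygen affinity of hemoglobin. K562 cells are known for erythroid features, and all 14 erythroid markers listed passed the filter for low counts. Of the markers of other cell types, *EPCAM*, an epithelial gene, was at 51.0 to 74.4 CPM, and *CD3D*, a T cell gene, at 2.71 to 29.2 CPM, with *MS4A1*, *CD8A*, *PDGFRA*, *KRT5* and *KRT14* at 0 to 2 counts in every library.

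The drug naive library held 21007761 counts and the DMSO library 24037893. The libraries of the early stage held 27808639 (10 nM), 27844799 (15 nM) and 20059656 (25 nM), and those of the late stage 20827519 (50 nM) and 21588772 (200 nM). CPM, the usual depth-scaled unit of read counts, divide the counts of a gene by the library total, scaled by the TMM method, and RPKM are the same values per kilobase of gene length, used where levels of different genes are compared. In the control lines *GAPDH* was the most abundant of the 33 genes at 1651 RPKM, followed by *ENO1* at 1015 RPKM and *ALDOA* at 704 RPKM. *PDK3* and *PDK2* were the least abundant, at 0.32 and 1.05 RPKM.

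The 2 control libraries differed from each other in these genes, and every comparison with the controls rests on both. Of the 33 genes, 18 were more than 1.25 times as high in the drug naive cells as in DMSO cells and none was as much lower, while among all 10452 genes 10.1% were higher and 8.62% lower by that factor. Above 1.5 times there were 12 and 0 of the 33, against 3.19% and 1.34% of all genes. *ALDOC*, a neuronal-type aldolase, was at 256 CPM in the drug naive cells and 76.1 CPM in DMSO cells. *ENO2*, the matching enolase, was at 74.1 and 26.4 CPM, and *LDHA*, the muscle-type lactate dehydrogenase, at 1747 and 727 CPM. These 3 had the largest ratios, of 3.36, 2.80 and 2.40. The median difference was 0.46 on the log2 scale over the 16 glycolysis enzymes and 0.66 over the 6 kinase regulators, against 0.17 over the 6 pentose phosphate enzymes. A list of HIF-1 targets outside glycolysis moved with them, with 14 of 15 tested genes higher in the drug naive cells, against 5027 of 10452 genes, and a median of 0.64. Of 8 other glycolysis and pentose phosphate genes tested 2 were higher, with a median of -0.12. The 28 genes of pyruvate dehydrogenase and the citrate cycle had a median of -0.09. With 1 library of each line there is no test of this difference, and the part of the HIF-1 targets in it was not tested.

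**Figure D1:**
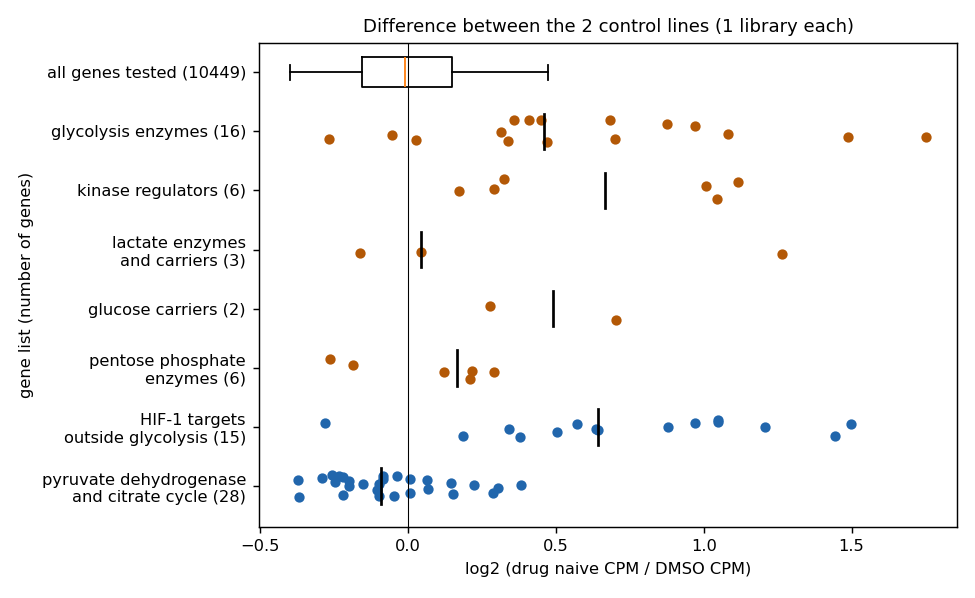
Each point is 1 gene and its x value is the log2 ratio of CPM between the drug naive and DMSO lines, with a black bar at each list's median; the box shows the middle of all genes tested, with whiskers from the 5th to the 95th percentile. The glycolysis enzymes and HIF-1 targets lie mainly to the right of 0, with medians of 0.46 and 0.64, while the citrate cycle genes lie around 0.

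The sequences before the starts of *ALDOC*, *ENO2* and *LDHA* are shown because these genes stood farthest apart between the control lines, and because HIF-1 is known to bind the letters ACGTG and GCGTG. They are the 250 bases before a start in RefSeq (GRCh38.p14), with every ACGTG or GCGTG on either strand in capitals. *ALDOC* is on the reverse strand at chr17:28576896-28577145, *ENO2* on the forward strand at chr12:6914330-6914579, and *LDHA* on the forward strand at chr11:18394313-18394562, at 1 of its 2 listed starts.
ALDOC: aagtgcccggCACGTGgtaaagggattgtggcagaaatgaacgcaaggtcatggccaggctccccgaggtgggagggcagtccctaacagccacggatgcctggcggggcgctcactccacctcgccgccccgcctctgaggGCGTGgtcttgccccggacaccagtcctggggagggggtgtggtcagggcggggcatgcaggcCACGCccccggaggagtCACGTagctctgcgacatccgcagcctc
ENO2: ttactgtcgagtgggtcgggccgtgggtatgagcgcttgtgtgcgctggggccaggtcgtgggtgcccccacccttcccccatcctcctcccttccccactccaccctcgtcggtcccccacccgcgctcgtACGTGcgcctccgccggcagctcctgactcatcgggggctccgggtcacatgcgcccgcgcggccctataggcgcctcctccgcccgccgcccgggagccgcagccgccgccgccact
LDHA: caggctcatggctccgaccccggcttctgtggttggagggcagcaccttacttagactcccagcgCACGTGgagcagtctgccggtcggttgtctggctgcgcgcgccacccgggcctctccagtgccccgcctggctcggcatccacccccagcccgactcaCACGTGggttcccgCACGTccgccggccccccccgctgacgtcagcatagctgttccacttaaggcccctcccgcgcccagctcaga

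ACGTG overlaps CACGTG, the letters that MYC binds, which hold it on both strands. Of 35116 such windows in the RefSeq table, 18.5% held ACGTG on either strand, 32.2% held GCGTG and 6.34% held CACGTG. The table held 59 starts for 31 of the 34 genes. It listed 26 starts for 17 of the 18 genes above 1.25 in the drug naive cells, and ACGTG was in 15 of these windows (57.7%) and GCGTG in 11 (42.3%), with CACGTG in 6 (23.1%). For 13 of the other 15 genes it listed 28 starts, with ACGTG in 5 (17.9%) and GCGTG in 5 (17.9%), with CACGTG in 1 (3.57%). Starts of 1 gene are not independent. Counted by gene, ACGTG was in 12 of 17 and in 5 of 13, GCGTG in 10 and 5, and CACGTG in 6 and 1. The share by gene over all genes was not counted. A match is a description of letters and not of binding, and the genes were divided by their measured ratio.

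The comparison of early stage intermediates with the control lines asked which genes differed between them. The DasR lines were grown in dasatinib and the controls were not, so resistance and drug exposure cannot be told apart here. Of the 33 genes, 3 rose and 3 fell at a false discovery rate (FDR) under 0.005 in the quasi-likelihood test of edgeR, adjusted after Benjamini and Hochberg over 10452 genes and fitted to all 7 libraries. Among all genes tested 18.0% were called, 7.92% higher and 10.1% lower, so the share of 6 in 33 (18.2%) was near the background. Those that rose were *SLC2A1*, *BPGM* and *PDK2*, the last of which entered the test only through the lines where it was high, and those that fell were *SLC2A3*, *PFKP* and *PGLS*. At an FDR under 0.05, 12 genes were lower and 3 higher, against 24.0% and 22.6% of all genes, and 19 had an unadjusted p under 0.05, against 54.2%. The median log2 fold change of the 33 was -0.35 against 0.00 for all genes. The early and control lines did not overlap for 17 genes lower in the early stage and 5 higher, against 35.1% and 35.5% of all genes. Without the drug naive library, which leaves 1 control, none of the 33 genes was called, and 208 were called in all. The log2 fold changes were then 1.87 for *SLC2A1*, 1.99 for *BPGM*, 2.37 for *PDK2*, -1.37 for *SLC2A3*, -0.67 for *PFKP* and -0.61 for *PGLS*, with FDRs between 0.0114 and 0.0392 by edgeR. Without the DMSO library the calls of *SLC2A1*, *BPGM*, *PDK2*, *SLC2A3* and *PGLS* were lost, and without any 1 early library those of *SLC2A3*, *PFKP* and *PGLS*. That of *SLC2A1* was also lost without the 25 nM library (FDR 0.00546 by edgeR). All early intermediates lay below DMSO cells alone in 17 of the 33 genes (51.5%, against 41.3% of all genes) and above them in 8 (24.2%, against 41.2%).

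**Figure D2:**
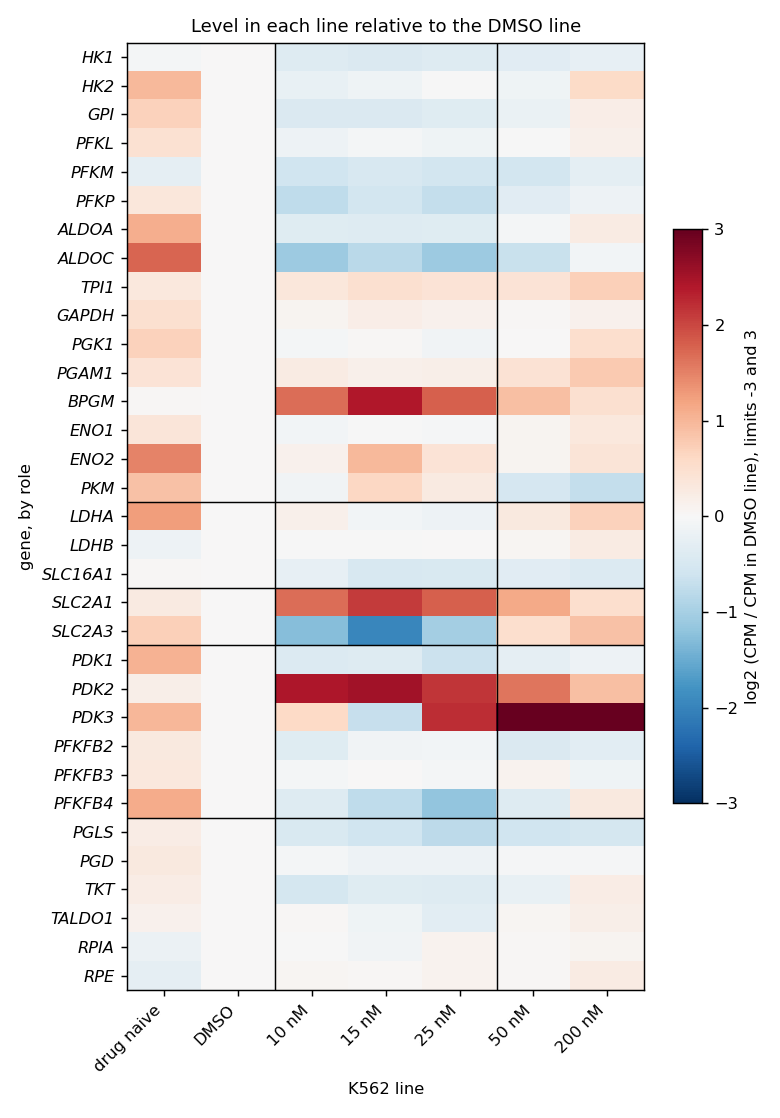
Each row is a gene, grouped by role with black lines between glycolysis enzymes, lactate genes, glucose carriers, kinase regulators and pentose phosphate enzymes; each column is 1 line, and color gives log2 of its CPM over that of DMSO cells. *SLC2A1*, *BPGM* and *PDK2* are red at 10 to 25 nM, *SLC2A3* is blue there, and *PDK3* is beyond the color limit of 3 at 50 and 200 nM.

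The 2 glucose carriers went in opposite directions. *SLC2A1* (gene ID 6513, hg19 chromosome 1 from 43391024 to 43424564, reverse strand) encodes GLUT1, the main glucose carrier of human red cells. It was at 171 CPM in the drug naive cells, 141 CPM in DMSO cells, 450, 606 and 491 CPM at 10, 15 and 25 nM, 308 CPM at 50 nM and 201 CPM at 200 nM. All early intermediates lay above both controls and above both late intermediates. It was 3.31-fold higher in the early intermediates, or 1.73 on the log2 scale (standard error 0.22, FDR 0.00124 by edgeR). *SLC2A3* (gene ID 6515, chromosome 12 from 8071826 to 8171603, reverse strand) encodes GLUT3, a carrier with high affinity for glucose. It was at 339 and 208 CPM in drug naive and DMSO cells, 86.0, 53.5 and 103 CPM at 10, 15 and 25 nM, and 295 and 386 CPM at 50 and 200 nM. The early intermediates were the lowest of all and the late intermediates overlapped the controls. Its log2 fold change in the early intermediates was -1.77 (standard error 0.30, FDR 0.00358 by edgeR), a level 3.40-fold lower. The FDR was 0.0315 without the drug naive library, 0.00786 without DMSO, and 0.0104, 0.00623 and 0.00765 without the 10, 15 and 25 nM libraries. *SLC2A3* has a close copy beside it, *SLC2A14*, which had between 47 and 215 counts in every library. How reads shared by the pair were counted was not measured here, so the level of *SLC2A3* is uncertain.

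On the RPKM scale *SLC2A3* exceeded *SLC2A1* in both controls, with a *SLC2A1* to *SLC2A3* ratio of 0.540 in the drug naive cells and 0.726 in DMSO cells. The ratio was 5.62, 12.2 and 5.14 at 10, 15 and 25 nM, then 1.12 and 0.558 at 50 and 200 nM. By these counts, in which reads shared with *SLC2A14* were not resolved, the ratio was above 1 in the early intermediates and below 1 in the controls and at 200 nM.

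**Figure D3:**
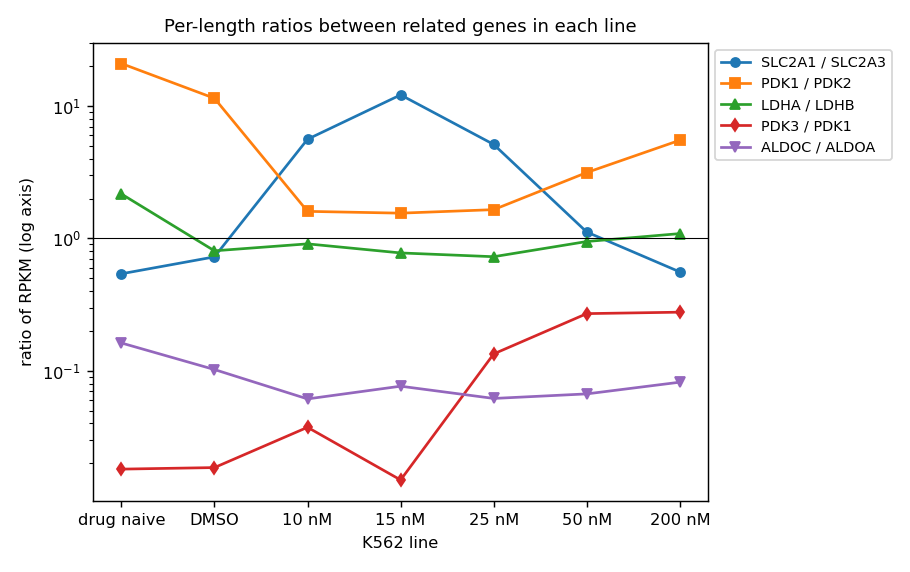
Each line follows the ratio of RPKM between a pair of related genes (y axis, log scale) across the 7 K562 lines (x axis), with 1 library behind each point. *SLC2A1* over *SLC2A3* peaks at 12.2 at 15 nM, *PDK1* over *PDK2* falls from 21.0 in the drug naive cells to 1.55 at 15 nM, and *PDK3* over *PDK1* is highest at 50 and 200 nM.

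Among the 16 glycolysis enzymes, 1 rose and 1 fell in the early intermediates, and 14 did not pass the FDR of 0.005 (12.5% called, against 18.0% of all genes). *BPGM* (gene ID 669, chromosome 7 from 134331563 to 134364568, forward strand) makes 2,3-bisphosphoglycerate, the red cell regulator of hemoglobin. It was at 16.5 and 16.2 CPM in drug naive and DMSO cells and at 52.0, 85.2 and 56.3 CPM at 10, 15 and 25 nM, with 30.3 and 22.5 CPM at 50 and 200 nM. The 3 groups did not overlap. The early stage rise was 3.94-fold, or 1.98 on the log2 scale (standard error 0.25, FDR 0.00119 by edgeR).

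Erythroid markers moved with *BPGM* and *SLC2A1*. The summed level of the 14 markers was 4353 and 3796 CPM in drug naive and DMSO cells, 12625, 14057 and 10993 CPM at 10, 15 and 25 nM, and 7082 and 4916 CPM at 50 and 200 nM, highest at 15 nM as for both genes. In the early intermediates 5 of the 14 passed the FDR of 0.005, all higher (35.7%, against 7.92% of all genes), among them *TFRC* and *EPOR*, the receptors for transferrin and erythropoietin. The most abundant in the controls, *HBG2*, was at 1243 and 904 CPM there and at 3048, 2264 and 1913 CPM in the early intermediates, highest at 10 nM, and did not pass (FDR 0.00658 by edgeR). *GATA1*, the master erythroid factor, did not pass (log2 fold change -0.18, FDR 0.283 by edgeR). The part of the erythroid program in these 2 results was not tested, and in bulk RNA a larger share of such cells cannot be told apart from more RNA per cell.

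*PFKP* (gene ID 5214, chromosome 10 from 3108525 to 3179910, forward strand), the platelet-type subunit of phosphofructokinase, which commits sugar to glycolysis, was the enzyme that fell. It was at 137 and 109 CPM in drug naive and DMSO cells, 63.8, 74.4 and 66.6 CPM at 10, 15 and 25 nM, and 85.7 and 97.9 CPM at 50 and 200 nM. All 5 resistant lines lay below both controls. The log2 fold change in the early intermediates was -0.85 (standard error 0.13, FDR 0.00237 by edgeR). The FDR was 0.0187 without the drug naive library and 0.00788, 0.0051 and 0.0121 without the 10, 15 and 25 nM libraries. The liver and muscle subunits did not pass 0.005, with log2 fold changes of -0.35 for *PFKL* (FDR 0.0715) and -0.42 for *PFKM* (FDR 0.0240, both by edgeR).

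The other enzymes are best read beside the gap between the controls. *ALDOC* had the most negative fold change of the 33 genes in the early stage, at -2.12 on the log2 scale (standard error 0.44), yet its FDR was 0.00765 by edgeR. Its early intermediates were at 35.6, 43.3 and 35.5 CPM, below DMSO cells at 76.1 CPM as well as the drug naive cells. *ALDOA*, the main aldolase here, was at 2666 and 1258 CPM in drug naive and DMSO cells and at 983, 957 and 972 CPM at 10, 15 and 25 nM, with a log2 fold change of -1.02 (FDR 0.0190 by edgeR). *GPI*, which isomerizes glucose phosphate, and *HK1*, which phosphorylates glucose, had log2 fold changes of -0.79 and -0.37 (FDR 0.0162 and 0.00668 by edgeR). *HK1* was among the few enzymes on which the controls were close, at 920 and 954 CPM, against 732, 712 and 731 CPM in the early intermediates. *GAPDH* was at 2512 CPM in the drug naive cells and between 1813 and 2093 CPM in the other 6 lines. *TPI1*, triose phosphate isomerase, lay above both controls in all 5 resistant lines, with controls of 308 and 383 CPM beside 392 to 503 CPM, and did not pass (FDR 0.152 early, 0.0704 late, by edgeR). *ENO2*, *LDHA*, *HK2*, *PGK1*, *ENO1*, *PGAM1* and *PKM* had FDRs between 0.0860 and 0.880 in the early stage comparison by edgeR. Leaving out the drug naive cells turned the direction for *ENO2*, *GAPDH*, *PGAM1*, *PKM*, *LDHB* and *RPIA*, none of which was called.

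**Figure D4:**
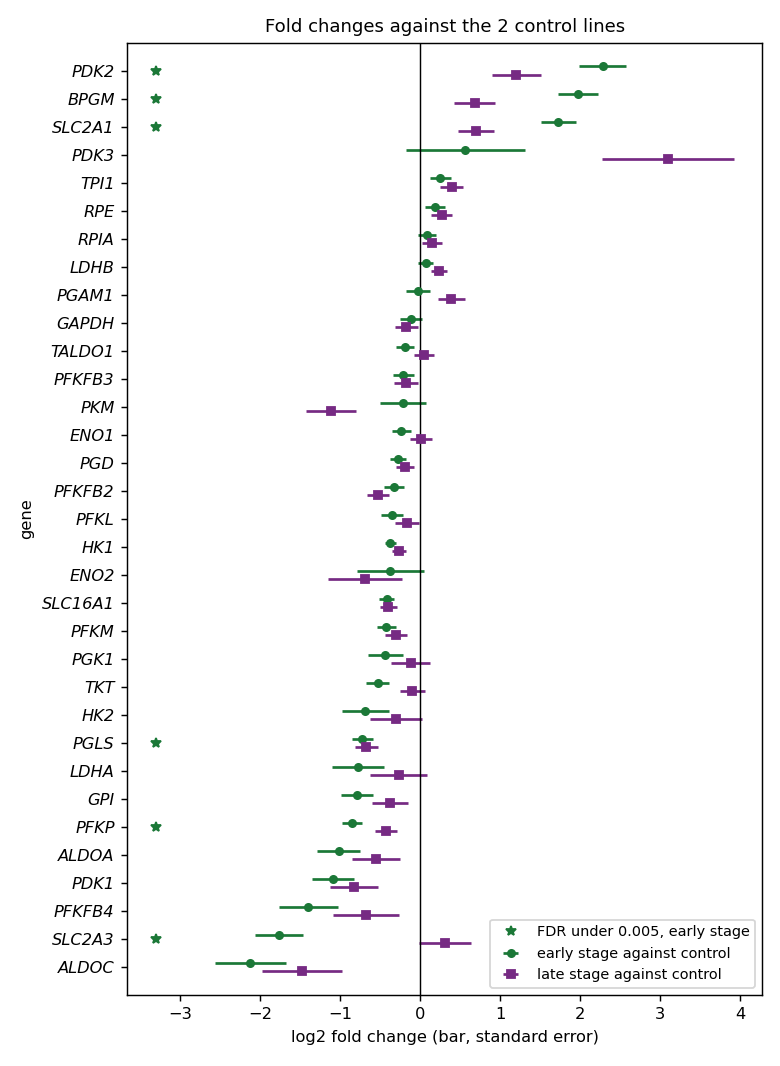
Points give the log2 fold change of each gene (x axis) in the early stage (green circles) and late stage (purple squares) lines against the same 2 controls, with bars of 1 standard error, and stars mark genes past an FDR of 0.005 in the early stage. Green points run from -2.12 for *ALDOC* to 2.28 for *PDK2* and lie left of 0 for 25 of 33 genes. Of all 10452 genes tested, 5251 were above 0 in the early stage.

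None of the 3 lactate genes tested was called in either stage by edgeR, against 18.0% of all genes in the early and 7.98% in the late stage. *LDHB*, the heart-type lactate dehydrogenase, was between 505 and 673 CPM in every line. On the RPKM scale *LDHA* exceeded *LDHB* by 2.17 times in the drug naive cells, and the ratio was between 0.727 and 1.09 in the other 6 lines. *SLC16A1*, the lactate carrier MCT1, was at 390 and 377 CPM in the controls, then 316, 269 and 276 CPM in the early intermediates and 299 and 284 CPM in the late intermediates. All 5 resistant lines lay below both controls, although neither comparison passed 0.005 (FDR 0.0103 early, 0.0247 late, by edgeR). *SLC16A3*, the carrier MCT4, was at 5.53 and 2.96 CPM in the controls, at 1.80, 1.28 and 1.89 CPM at 10, 15 and 25 nM and at 5.48 and 8.47 CPM at 50 and 200 nM. The early intermediates were the lowest.

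The kinases of pyruvate dehydrogenase switch that enzyme off by phosphorylation and so hold back the making of acetyl-CoA. The RPKM ratio of *PDK1* to *PDK2* was 1.55 to 1.65 in the early intermediates, and 3.15 and 5.53 at 50 and 200 nM. This ratio was not tested. When the stages were compared directly by edgeR, *PDK1*, *PDK2* and *PDK3* had FDRs of 0.531, 0.0440 and 0.0544, so none was called. *PDK2* (gene ID 5164, chromosome 17 from 48172101 to 48189516, forward strand) was at 2.55 and 2.26 CPM in drug naive and DMSO cells and 12.2, 12.9 and 10.0 CPM at 10, 15 and 25 nM, with 6.88 and 4.21 CPM at 50 and 200 nM. The groups did not overlap. The early stage rise was 4.86-fold, or 2.28 on the log2 scale (standard error 0.29, FDR 0.00129 by edgeR). This gene passed the filter of 10 CPM only through the early intermediates, where it was high, so its test was not independent of the filter. With a filter of 1 CPM, which it passed in every line, the FDR was 0.00105 by edgeR. *PDK1*, the isoform that HIF-1 is known to raise, was at 107 and 51.8 CPM in the controls, against 39.0, 39.9 and 33.0 CPM at the early stage (log2 fold change -1.09, FDR 0.0140 by edgeR). On the RPKM scale *PDK1* exceeded *PDK2* by 21.0 and 11.5 times in drug naive and DMSO cells, and by 1.55 to 1.65 times in the early intermediates.

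*PDK3* (gene ID 5165, chromosome X from 24483361 to 24568583, forward strand) was at 5.53 and 2.75 CPM in drug naive and DMSO cells, 4.19, 1.71 and 12.7 CPM at 10, 15 and 25 nM, and 33.6 and 37.0 CPM at 50 and 200 nM. It varied 7.42-fold among the early intermediates, where the median of the 33 genes was 1.16-fold. The late intermediates lay above all others, at 3.09 on the log2 scale relative to the controls (standard error 0.82), and was not called (FDR 0.0261 by edgeR). It passed the filter of 10 CPM only through the 25, 50 and 200 nM lines, where it was high, and with a filter of 1 CPM, which it passed in every line, the FDR was 0.0276 by edgeR.

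**Figure D5:**
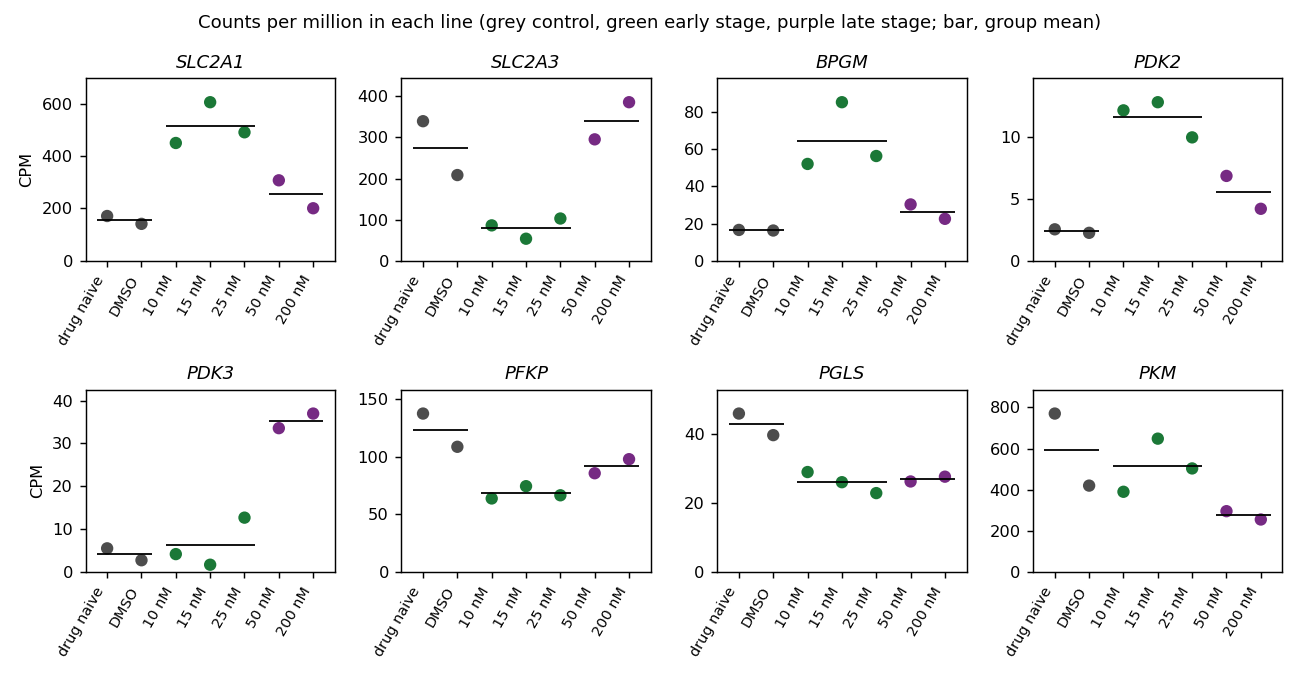
CPM (y axis, from 0) in each of the 7 lines (x axis) for 8 of the genes, with bars at group means. *SLC2A1*, *BPGM* and *PDK2* are highest at 15 nM, *SLC2A3* is lowest there, and *PDK3* is highest at 50 and 200 nM.

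The bifunctional enzymes that set fructose 2,6-bisphosphate, the activator of phosphofructokinase, were not called in the early intermediates. *PFKFB4* had the largest fold change of these, with controls of 66.5 and 30.7 CPM beside 23.5, 18.2 and 13.5 CPM at 10, 15 and 25 nM (log2 fold change -1.40, FDR 0.0187 by edgeR). *PFKFB2* and *PFKFB3* had log2 fold changes of -0.33 and -0.21 (FDR 0.0652 and 0.232 by edgeR).

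In the pentose phosphate pathway 1 of 6 enzymes fell in the early intermediates and 5 did not pass (16.7% called, against 18.0% of all genes). *PGLS* (gene ID 25796, chromosome 19 from 17622445 to 17632097, forward strand) hydrolyzes the lactone formed in the first step. It was at 45.9 and 39.6 CPM in drug naive and DMSO cells, 28.9, 26.0 and 22.8 CPM at 10, 15 and 25 nM, and 26.2 and 27.6 CPM at 50 and 200 nM. All 5 resistant lines lay below both controls. The log2 fold change was -0.72 in the early intermediates (standard error 0.13, FDR 0.00445 by edgeR) and -0.67 in the late intermediates (standard error 0.14, FDR 0.0130 by edgeR). The early stage FDR rose above 0.005 when any 1 of the 7 libraries was left out. *TKT*, the transketolase that links the pathway to glycolysis, had a log2 fold change of -0.53 (FDR 0.0186 by edgeR), and *PGD*, *TALDO1*, *RPIA* and *RPE* had FDRs between 0.0630 and 0.583. *RPIA* and *RPE*, which interconvert the pentoses, stayed between 23.6 and 33.6 CPM in every line.

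Both stages share the 2 control libraries, so their comparisons are not independent. In the late stage none of the 33 genes passed the FDR of 0.005 in the same edgeR test with its Benjamini-Hochberg adjustment, while 7.98% of all genes did, 3.42% higher and 4.56% lower. At an unadjusted p under 0.05 there were 14 of the 33 genes, against 45.9% of all genes, and DESeq2 called 2503 of all 10452 genes and 4 of the 33, with *SLC2A1* and *PDK2* higher and *SLC16A1* and *PGLS* lower. At an FDR under 0.05, 3 genes were higher (*SLC2A1*, *PDK2* and *PDK3*) and 5 lower (*PGLS*, *SLC16A1*, *PFKFB2*, *PKM* and *HK1*), against 16.2% and 17.6% of all genes. Late and control lines did not overlap for 9 genes higher and 10 lower in the late stage, against 33.6% and 34.9%. *PKM*, pyruvate kinase, was at 770.5 and 420 CPM in drug naive and DMSO cells, 390, 649 and 504 CPM at 10, 15 and 25 nM and 296 and 255 CPM at 50 and 200 nM, where it was below every other line (log2 fold change -1.11, FDR 0.0322 by edgeR). The 2 late intermediates differed from each other in the direction of higher levels at 200 nM for 9 of the 33 genes by more than 1.25 times, against 10.7% of all genes, and lower for 3, against 14.7%. *HK2*, *PFKFB4* and *PGK1* were 1.62, 1.62 and 1.42 times as high at 200 nM as at 50 nM, with no test of 1 library against 1.

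Between late and early intermediates no gene of the 33 and none of the 10452 passed the FDR of 0.005 in the edgeR test. At an unadjusted p under 0.05 there were 9 of 33, against 33.0% of all genes, and DESeq2 called 3 of the 33 and 1135 of all genes. The 3 with the smallest p-values were *SLC2A3*, *BPGM* and *SLC2A1*, and these were also the 3 that DESeq2 called. At an FDR under 0.05 there were 1 higher and 3 lower, against 6.60% and 6.10% of all genes. *SLC2A3* was higher in the late intermediates, by 2.08 on the log2 scale (standard error 0.30, FDR 0.0167 by edgeR). *BPGM* was lower, at -1.29 (standard error 0.24, FDR 0.0219), and so was *SLC2A1*, at -1.02 (standard error 0.21, FDR 0.0275, both by edgeR). Late and early intermediates did not overlap, with the late stage higher, for 16 of the 33 genes (48.5%, against 26.6% of all genes) and lower for 4 (12.1%, against 26.8%).

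Genes around the pathway were read from 5 further lists. Of 25 other glycolysis and pentose phosphate genes, 8 passed the filter, and in the early intermediates 2 rose and 1 fell (37.5% called, against 18.0% of all genes). *PCK2*, the mitochondrial PEP carboxykinase, had 166 ± 35.2 CPM (SD, n = 2) in the controls and fell to 40.8 ± 7.42 CPM (SD, n = 3), a log2 fold change of -2.02 (FDR 0.000518 by edgeR). *PGM2*, which feeds ribose and glucose phosphates to the pathway, rose by 0.73 and *PRPS1*, which turns ribose phosphate into PRPP, by 0.55 on the log2 scale (FDR 0.00159 and 0.00290 by edgeR). In the late intermediates *PGM2* was called higher and *PCK2* lower (25% called, against 7.98% of all genes). Their log2 fold changes there were 0.71 and -1.54 (FDR 0.00380 and 0.00333 by edgeR). Of 29 genes of pyruvate dehydrogenase and the citrate cycle, 28 were tested, with 1 higher and 4 lower in the early intermediates (17.9% called, against 18.0% of all genes) and 2 higher and 1 lower in the late intermediates (10.7%, against 7.98%). *IDH1*, the cytosolic isocitrate dehydrogenase, had a log2 fold change of -2.45 in the early and -1.75 in the late intermediates, and *SUCLG1*, of succinyl-CoA ligase, -0.91 and -0.50, the last of these not called (FDR 7.76e-05, 0.000612, 0.00105 and 0.0199 by edgeR). *IDH3B*, a subunit of the mitochondrial enzyme, rose by 0.94 and 1.19 (FDR 0.00305 and 0.00289 by edgeR). *IDH3G*, its partner, passed in the late stage at 0.61 and not in the early stage at 0.38 (FDR 0.00406 and 0.0106 by edgeR), a difference that was not tested.

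Of 21 HIF-1 targets outside glycolysis, 15 were tested, and 3 fell and none rose in the early intermediates (20% lower, against 10.1% of all genes). The most abundant, *DDIT4*, an inhibitor of mTOR signaling, had 995 ± 90.8 CPM (SD, n = 2) in the controls and fell to 135 ± 13.9 CPM (SD, n = 3), and *VEGFA*, the vascular growth factor, from 695 ± 215 CPM to 98.6 ± 20.7 CPM (log2 fold changes -2.89 and -2.82, FDR 0.000996 and 0.000312 by edgeR). The summed level of the 15 genes was 3402 and 2281 CPM in drug naive and DMSO cells, 1044, 1039 and 1026 CPM at 10, 15 and 25 nM and 1216 and 1732 CPM at 50 and 200 nM. *DDIT4* and *VEGFA* carried this difference from DMSO cells. The summed level of the other 13 genes was 1495 and 807 CPM in drug naive and DMSO cells, 809, 823 and 777 CPM at 10, 15 and 25 nM and 817 and 979 CPM at 50 and 200 nM, so this sum was below that of DMSO cells only at 25 nM. Of the 13 genes, 6 lay below DMSO cells in every early line (against 41.3% of all genes), *BHLHE40*, *P4HA1*, *ERO1L*, *KDM3A*, *FAM162A* and *INSIG2*, and 5 above (against 41.2%), *AK4*, *BNIP3*, *BNIP3L*, *MXI1* and *P4HA2*. *ERO1L*, a thiol oxidase, was the other gene that fell (log2 fold change -1.18, FDR 0.00154 by edgeR). *DDIT4* and *ERO1L* are also known to respond to stress of the endoplasmic reticulum or amino acid supply. Of 6 genes of the HIF machinery, 2 fell (33.3%, against 10.1% of all genes lower), *VHL*, the ligase that marks HIF for destruction, and *ARNT*, the partner of HIF-1 alpha (log2 fold changes -1.23 and -0.49, FDR 0.000243 and 0.00388 by edgeR), while *HIF1A* was at 0.04 (FDR 0.808). Of 16 genes that lead from glycolysis to serine, glycerol, hexosamine or glycogen, 5 fell and none rose in the early intermediates (31.2%, against 10.1% of all genes lower). *GFPT1*, the first enzyme of hexosamine synthesis, fell from 586 ± 62.9 CPM to 111 ± 8.44 CPM and *PHGDH*, the first of serine synthesis, from 377 ± 42.2 CPM to 71.9 ± 2.47 CPM (log2 fold changes -2.40 and -2.39, each with an FDR of 7.76e-05 by edgeR). In the late stage 1 of the 16 rose and 3 fell (25% called, against 7.98% of all genes). *UAP1*, a later enzyme of the hexosamine branch, was higher, from 160 to 323 CPM (FDR 0.000963 by edgeR). *GFPT1*, *PHGDH* and *PSPH*, the last enzyme of serine synthesis, were lower, with log2 fold changes of -2.07, -1.85 and -1.04 (FDR 0.000393, 0.000652 and 0.00357 by edgeR). Of the 15 HIF-1 targets 1 fell in the late stage (6.67%), *VEGFA*, and of the 6 genes of the HIF machinery 1 (16.7%), *VHL*, against 4.56% of all genes lower (log2 fold changes -1.62 and -1.17, FDR 0.00498 and 0.000908 by edgeR). The median log2 fold change in the early intermediates was -0.69 for the HIF-1 targets, -0.59 for the branches and -0.11 for the citrate cycle list, beside -0.35 for the 33 genes.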

How the data were processed

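RNA from 7 K562 lines was sequenced as paired reads after ribosomal depletion with a directional kit. Alignment was to hg19 by STAR, and the authors deposited whole-number counts per gene made by featureCounts, not normalized. Whether counting used strand is not given in the sources used here, and reads of overlapping genes cannot be told apart. The authors' own fold changes and p-values in 2 further tables were not used, apart from their gene IDs, symbols and gene lengths. All 7 columns of counts were used.

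The filter kept the 10452 genes that reached 10 CPM in 2 or more libraries. TMM scaling was applied, and the tests were run in edgeR 4.0.16 in R 4.3.3 (glmQLFit and glmQLFTest, 1 coefficient per group, all 7 libraries), called at an FDR under 0.005. Standard errors are the log2 fold change divided by the root of its F value. The common dispersion was 0.0260. DESeq2 1.42.0, other scalings and filters, the threshold, the grouping and leaving out each library were alternatives. The functions were tested on simulated data. Counts of lines in a group differed by more than sampling noise (chi-square per degree of freedom 21.1 to 70.1). A count of 3 corresponds to 0.107 to 0.149 CPM, and depth covers counting error only.

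Positions are from GENCODE on GRCh37, the same build as hg19, and the chromosome matched the authors' for all 33 genes. Promoters are from RefSeq. The genes, and the lists beside them, were chosen with earlier results of these data known. All 33 genes are named, with values in each library for those called, and of each further list the called genes, up to 2 in each direction, that had the smallest p-values. Other genes of these lists, and other genes with values in each line, were chosen after their values were seen.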

Additional observations from a re-analysis of the deposited data

How the results depend on the processing

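In the early stage comparison by edgeR, 6 of the 33 genes and 1881 of all genes were called, and both counts stayed within 1.5 times under both other scalings, both other filters and the fit to the groups compared alone. DESeq2 called 14 genes (3 higher, 11 lower) and 3548 in all, an FDR under 0.05 gave 15 and 4865, and all 5 DasR lines as 1 group gave 0 and 845. Leaving out 1 library gave 0 to 5 of the 33 and 208 to 2066 in all. The lowest was without the drug naive line. Without the DMSO line there were 4 (0 higher, 4 lower) and 529. With the 10 nM, 15 nM or 25 nM line left out there were 3 and 1111, 3 and 889, and 2 and 535, and all of these among the 33 were higher, against 3 higher and 3 lower with every library. In the late stage comparison, with 0 and 834 called, DESeq2 gave 4 and 2503, an FDR under 0.05 gave 8 and 3542, no filter gave 0 and 1287, and the compared groups alone gave 1 (*PDK3*) and 257. Leaving out 1 library gave 0 of the 33 and 33 to 596 in all. Between late and early stage lines, with 0 and 0, DESeq2 gave 3 and 1135, an FDR under 0.05 gave 4 and 1328, no filter gave 1 (*SLC2A3*) and 295, and leaving out 1 library gave 0 of the 33 and 0 to 198 in all. *SLC2A1*, *SLC2A3*, *BPGM*, *PDK2*, *PFKP* and *PGLS* kept their early stage direction under all 15 alternatives, and with all DasR lines as 1 group *SLC2A3* was at -0.57 (FDR 0.586 by edgeR). The causes of these shifts were not tested. No paired analysis was possible because the labels give no replicate numbers that link lines of different groups. With 1 library a line, the spread within a group includes dose, and leaving a group with 1 library assumes that it varies like the others.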
